A study of Mus musculus with 5 samples.

Results

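Cytochrome P450 enzymes of families 1 to 3 were compared in the livers of mice given PBS or CSF1-Fc, a fusion of pig CSF1, the growth factor of the macrophage lineage, with the Fc part of pig IgG1a. Genes were taken by symbol, as every gene named *Cyp* followed by 1, 2 or 3, a subfamily letter and a number. On rows of the array annotated to 1 gene symbol, 53 such genes were measured among 18820 named genes. No measured value entered the choice of genes, but the set was chosen with earlier results of these data known. Adult C57BL/6 mice received subcutaneous PBS (2 livers, PBS 1 and PBS 2) or CSF1-Fc (3 livers, CSF1-Fc 1 to CSF1-Fc 3) on 4 consecutive days and were killed on day 5. The labels name no transgene, knockout or other agent in either group and do not give the sex of the mice. Each liver was hybridized to 1 Affymetrix Mouse Gene 1.1 ST array, whose probes are spread along the whole transcript. Values are given as log2 of the deposited normalized intensity, so that 1 unit is a doubling, and a fold change is the CSF1-Fc mean minus the PBS mean on that scale with its standard error (SE).

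P450 enzymes are heme proteins of the endoplasmic reticulum that insert an oxygen atom into their substrates, using electrons passed on by P450 reductase and cytochrome b5. Families 1 to 3 carry out most of the oxidation of drugs and other foreign compounds in hepatocytes, and also act on steroids, bile acids, fatty acids and vitamin D. Many of them are induced by ligand-activated receptors, the aryl hydrocarbon receptor (AhR) for family 1, the constitutive androstane receptor (CAR) for subfamily 2b and part of 2c, and the pregnane X receptor (PXR) for subfamily 3a.

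Every gene of P450 families 1 to 3 that passed the test was lower in the CSF1-Fc livers. Of the 53 genes, 9 were lower at an adjusted p under 0.05 and 0 were higher (limma, p-values adjusted by Benjamini-Hochberg across the 35556 rows). At an unadjusted p under 0.05, 31 were lower, against 14.5% of all named genes (31.9% of those at a PBS log2 intensity of at least 8), and 0 were higher. Among all named genes 3.95% were lower and 8.34% were higher by the same test (3.19% and 5.77% of all rows), so calls on these arrays were more often upwards. The fold change was below 0 for 49 of the 53 genes, with a median of -0.42 against -0.08 for all named genes. In 36 of the 53 genes every CSF1-Fc array lay below both PBS arrays, an arrangement found in 29.3% of all named genes. The called genes were *Cyp2d9*, *Cyp2d10*, *Cyp2d11*, *Cyp2d13* and *Cyp2d22* in subfamily 2d, with *Cyp1a2*, *Cyp2b10*, *Cyp2c37* and *Cyp2j9*. The calls rested on few mice. Without PBS 2, 0 of the 9 passed, without PBS 1 *Cyp2d10* and *Cyp2d13* passed, and without CSF1-Fc 1 *Cyp2d10* passed. With no pooling of the variance across rows, which leaves 3 degrees of freedom, 0 genes passed, although 22 were lower at an unadjusted p under 0.05.

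**Figure D1:**
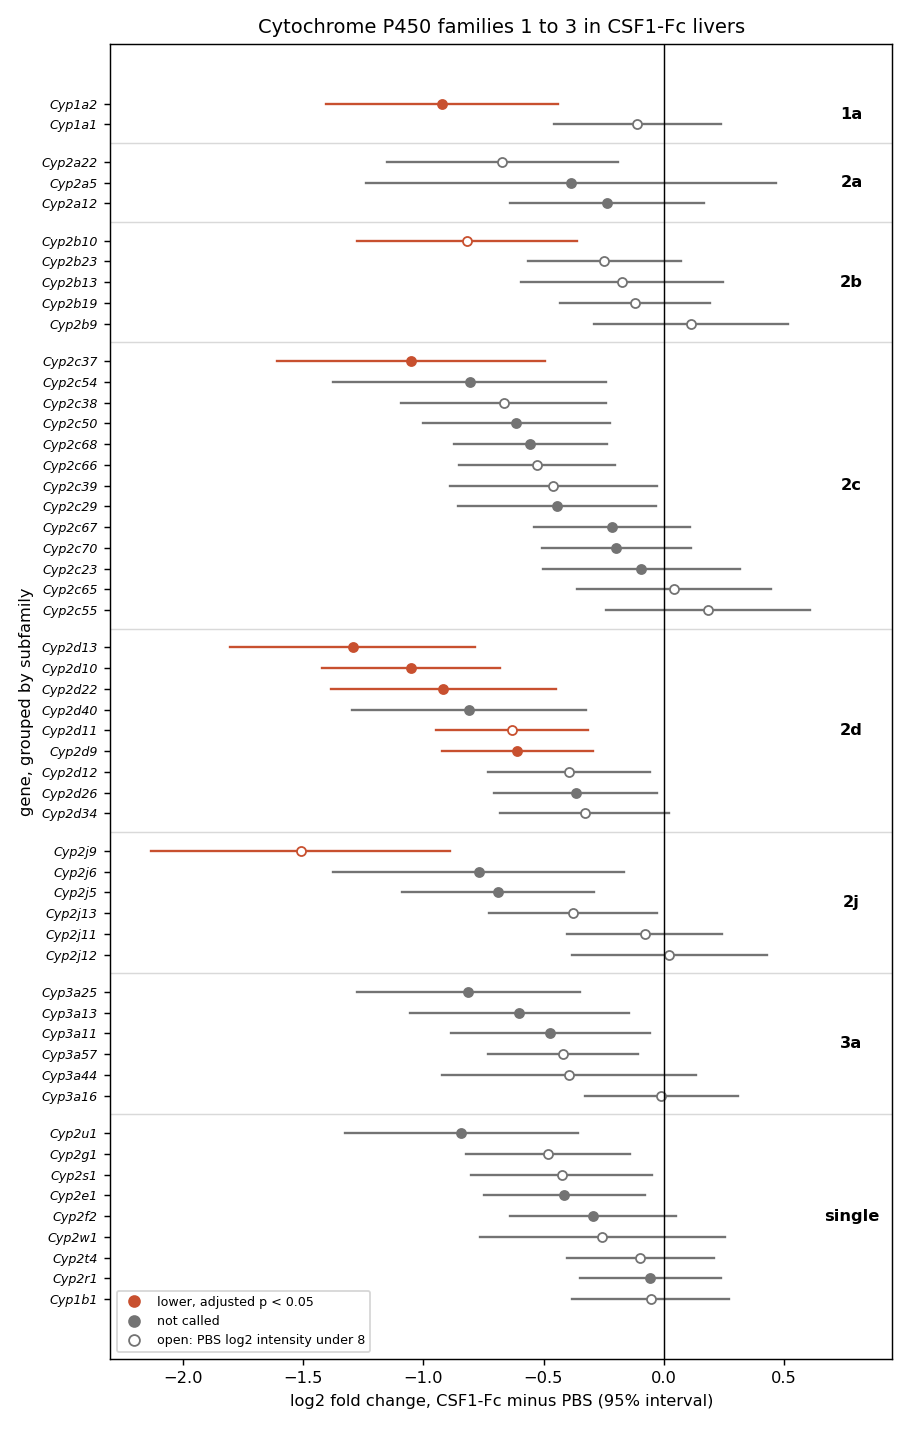
Log2 fold change (CSF1-Fc minus PBS, with its 95% interval from the limma fit) of the 53 P450 genes, grouped by subfamily, with subfamilies of 1 gene at the bottom. Red marks the 9 genes called lower and open points mark a PBS log2 intensity under 8. The points lie left of 0 for 49 genes, and all 9 genes of subfamily 2d are among them.

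The genes were also read by their signal in PBS livers. A mean PBS log2 intensity of at least 8 was found for 26 genes, and all 26 had a fold change below 0, with a median of -0.60 against -0.18 for all named genes at that level. Of these 26, 6 were called lower, where the background at that level was 11.4%, and 22 had every CSF1-Fc array below both PBS arrays, where the background was 44.4%. By class, 4 of 15 genes with a PBS log2 intensity of at least 11 were called (background 13.8%), as were 2 of 11 between 8 and 11 (11.1%), 1 of 5 between 5 and 8 (3.59%) and 2 of 22 under 5 (0.242%). Every CSF1-Fc array lay below both PBS arrays in 13 of the 15 (background 55.3%), 9 of the 11 (43%), 3 of the 5 (27%) and 11 of the 22 (22.9%). The 22 genes under 5 had a median fold change of -0.25, and a value this low may hold little but probe background. Classes were set from the PBS arrays, which also enter the fold change, for P450 genes and background alike. The intensity of an array row depends on its probes, so these classes do not rank the genes by transcript number.

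**Figure D2:**
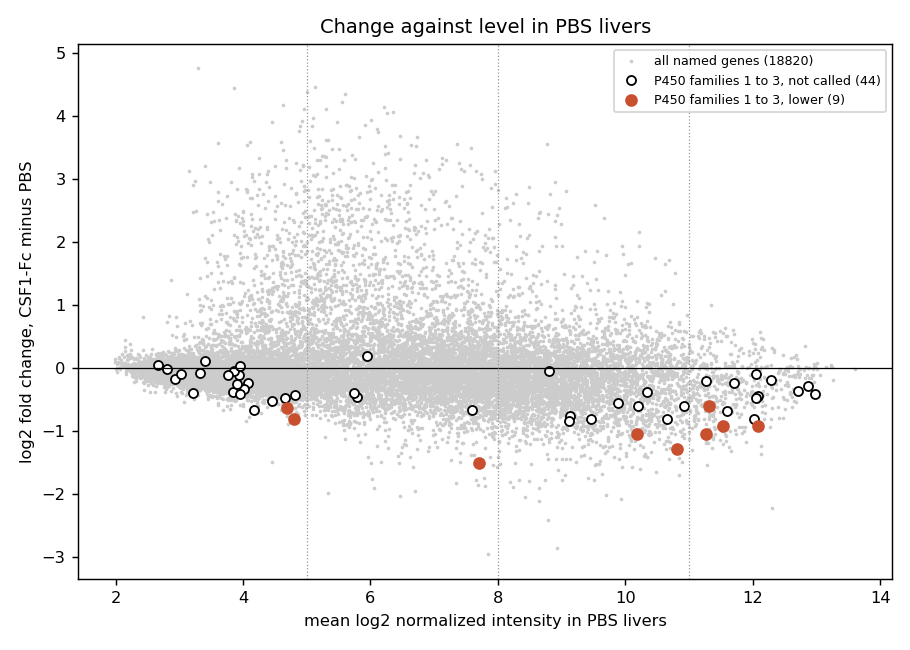
Log2 fold change (CSF1-Fc minus PBS) against the mean log2 normalized intensity in PBS livers for 18820 named genes (grey), 44 P450 genes not called (open) and 9 called lower (red). Dotted lines mark the class limits at 5, 8 and 11. The P450 points to the right of 8 all lie below 0.

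The 3 treated livers differed in their distance from the controls. Over the 26 genes at a PBS log2 intensity of at least 8, the median difference from the PBS mean was -0.61 in CSF1-Fc 1, -0.74 in CSF1-Fc 2 and -0.34 in CSF1-Fc 3. CSF1-Fc 2 had the lowest value of all 5 arrays in 21 of the 26 genes, and CSF1-Fc 3 had the highest of the treated values in 20. Between the control livers, PBS 2 was above PBS 1 in 20 of the 26. Since the genes share arrays, these counts describe the arrays and are not independent observations.

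**Figure D3:**
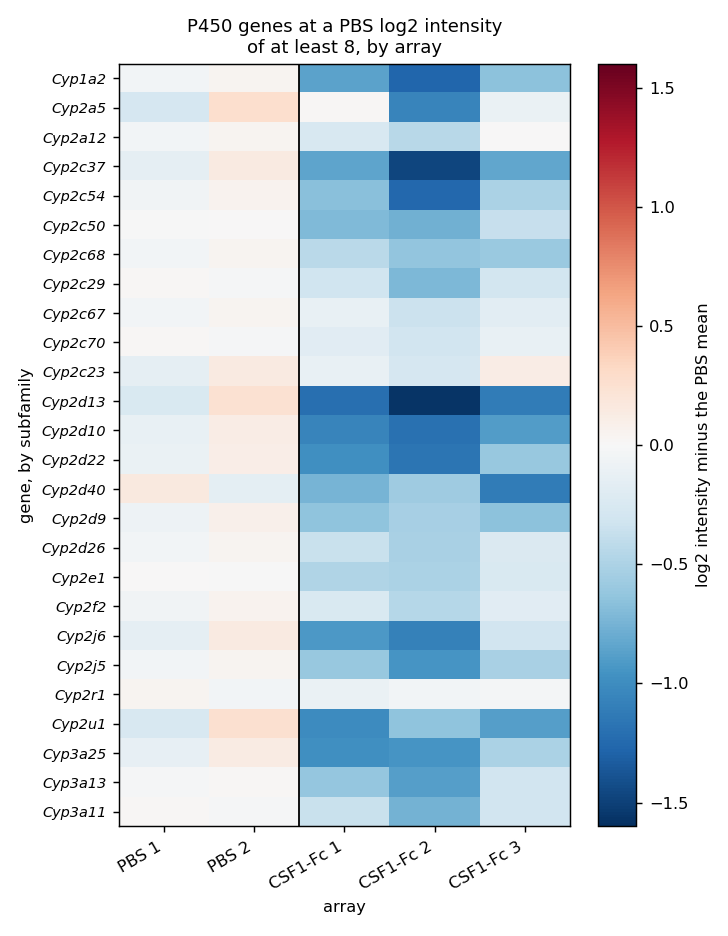
Log2 intensity minus the PBS mean (colour) for the 26 P450 genes with a PBS log2 intensity of at least 8 (rows) on each of the 5 arrays (columns). The 3 CSF1-Fc columns are mostly blue, with the deepest blue in CSF1-Fc 2, which was the lowest array in 21 of 26 genes.

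Markers of several other cell types, and markers of proliferation, rose in the same livers. The study reported that most liver cells stained for the proliferation marker PCNA were hepatocytes. All 17 measured macrophage markers were higher, with a median fold change of 2.46, and their summed linear intensity was 6859 to 7395 in PBS livers and 29684 to 30394 in CSF1-Fc livers. Of the proliferation markers 5 of 5 were higher (summed intensity 644 to 720 against 3445 to 4096), as were 5 of 6 neutrophil markers (128 to 203 against 1428 to 1783) and 3 of 3 B cell markers (104 to 113 against 328 to 366). Of the other lists, the 7 endothelial markers had a median fold change of -0.34 (1 higher, 1 lower), the 7 stellate cell markers -0.35 (1 higher, 0 lower, 4 lower at an unadjusted p under 0.05) and the 4 cholangiocyte markers -0.28 (0 called, all 4 below 0, 1 lower at an unadjusted p under 0.05). The 22 hepatocyte secreted protein genes, from albumin to the fibrinogen chains, gave 0 calls in either direction. Among all named genes at a PBS log2 intensity of at least 11, 13.8% were called lower. Of the 22, 19 had a fold change below 0. In 12 of them every CSF1-Fc array lay below both PBS arrays, where the background at that level was 55.3%. At an unadjusted p under 0.05, 0 were higher or lower. Their median fold change was -0.11, with a range of -0.41 to 0.06. Their PBS log2 intensities were 11.06 to 13.22 (median 12.87), where the highest among all named genes was 13.61. Whether so high a signal compresses changes in these 22 genes was not tested. Their summed intensity was 152637 to 153867 in PBS livers and 136554 to 148316 in CSF1-Fc livers. By array, their median difference from the PBS mean was -0.11, -0.20 and -0.07 in CSF1-Fc 1, 2 and 3, the order seen for the 26 P450 genes at a PBS log2 intensity of at least 8. Over all 53 P450 genes the medians were -0.36, -0.51 and -0.37. With every array centred on these 22 genes, which raised the median over all rows from -0.08 to 0.04, 6 P450 genes were called lower, the median over all 53 was -0.30 and 24 of the 26 genes at a PBS log2 intensity of at least 8 remained below 0. The part of cell makeup in the P450 changes was not tested further, and in whole liver RNA fewer hepatocytes and less RNA per hepatocyte cannot be told apart.

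Subfamily 2d held most of the calls. Its 9 measured genes that match the naming pattern lie on chromosome 15. Their RefSeq order is *Cyp2d22*, *Cyp2d11*, *Cyp2d10*, *Cyp2d9*, *Cyp2d12*, *Cyp2d34*, *Cyp2d13*, *Cyp2d40* and *Cyp2d26*. All 9 had every CSF1-Fc array below both PBS arrays, against 29.3% of all named genes. Their fold changes ran from -1.29 to -0.33 with a median of -0.63. At a PBS log2 intensity of at least 8, 4 of 6 were called, against 11.4% of all named genes at that level. Of all 9 genes, 5 were called, against 3.95% of all named genes. The number called was 0 without PBS 2, 1 without CSF1-Fc 1, 2 without PBS 1 and 3 without CSF1-Fc 2 or without CSF1-Fc 3. The genes are close copies of each other, and whether probes of 1 gene bind transcripts of another was not tested.

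The windows from 250 bases before to 50 bases after the transcript start were taken from RefSeq (mouse build GRCm38.p6), which held one for 45 of the 53 genes, though not for *Cyp2d12*, *Cyp2d13*, *Cyp2d22* or *Cyp2d34*. The windows of 3 called 2d genes are shown because their starts are alike. That of *Cyp2d26*, which was not called and was less like them, is shown for comparison. Capitals mark TATAAA on either strand, which reads TTTATA on the strand shown when it lies on the other.
*Cyp2d9* (chr15:82452127-82452426, plus strand): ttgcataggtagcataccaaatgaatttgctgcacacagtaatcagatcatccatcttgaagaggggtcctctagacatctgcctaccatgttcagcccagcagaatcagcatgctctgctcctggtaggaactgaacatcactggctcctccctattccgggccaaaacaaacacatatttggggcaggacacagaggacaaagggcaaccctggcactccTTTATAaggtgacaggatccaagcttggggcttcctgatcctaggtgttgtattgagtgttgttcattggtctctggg
*Cyp2d10* (chr15:82407145-82407444, minus strand): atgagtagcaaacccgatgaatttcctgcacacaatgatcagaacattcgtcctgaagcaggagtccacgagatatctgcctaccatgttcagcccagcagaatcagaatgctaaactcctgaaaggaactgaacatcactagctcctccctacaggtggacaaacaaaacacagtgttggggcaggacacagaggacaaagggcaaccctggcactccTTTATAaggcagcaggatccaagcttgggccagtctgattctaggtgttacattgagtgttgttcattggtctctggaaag
*Cyp2d11* (chr15:82393973-82394272, minus strand): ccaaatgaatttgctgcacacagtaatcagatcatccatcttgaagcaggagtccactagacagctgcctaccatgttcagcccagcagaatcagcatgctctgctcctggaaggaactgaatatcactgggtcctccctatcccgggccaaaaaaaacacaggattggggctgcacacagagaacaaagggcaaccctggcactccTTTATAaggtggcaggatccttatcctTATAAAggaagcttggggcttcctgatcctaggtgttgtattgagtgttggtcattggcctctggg
*Cyp2d26* (chr15:82794196-82794495, minus strand): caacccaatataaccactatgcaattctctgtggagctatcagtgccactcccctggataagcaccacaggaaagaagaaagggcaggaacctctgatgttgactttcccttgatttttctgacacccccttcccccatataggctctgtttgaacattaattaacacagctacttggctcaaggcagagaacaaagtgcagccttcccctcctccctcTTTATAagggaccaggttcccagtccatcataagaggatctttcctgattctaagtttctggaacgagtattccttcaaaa
The *Cyp2d9* window was 82.9% identical to that of *Cyp2d10* and 84.5% identical to that of *Cyp2d11* in pairwise alignment, and the *Cyp2d10* and *Cyp2d11* windows were 76.8% identical. The *Cyp2d26* window was 50.3% to 52.7% identical to these 3, and that of the uncalled *Cyp2d40*, which is not shown, was 53.4% to 54.3% identical to them. All 4 windows shown held TATAAA on the opposite strand, starting 28 to 43 bases before the transcript start, and *Cyp2d11* held it again on the shown strand 16 bases before. Over all P450 windows TATAAA on either strand was found in 22 of 45 (48.9%), against 14.1% of 27025 RefSeq windows. Of the 7 called genes with a window, 4 held it.

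*Cyp2d10* read 10.07 and 10.31 in the control livers and 9.13, 8.99 and 9.29 in the treated livers. The groups lay well apart, and the fold change was -1.05 (SE 0.15, adjusted p = 0.0095), a level 2.07-fold lower. This call was kept under 16 of 18 alternative settings, more than for any other P450 gene called here, and was lost without PBS 2. *Cyp2d13*, listed by RefSeq as a transcribed pseudogene, read 10.56 and 11.06 in the control livers and 9.61, 9.25 and 9.69 in the treated livers. All treated values were below both controls, although the controls themselves differed, and the fold change was -1.29 (SE 0.21, adjusted p = 0.0145), lost without PBS 2 or CSF1-Fc 1. *Cyp2d22*, often set beside human CYP2D6, read 11.42 and 11.63 against 10.55, 10.36 and 10.92, with CSF1-Fc 3 nearest to the controls (fold change -0.92, SE 0.19, adjusted p = 0.0371). Its call was lost without PBS 1, PBS 2, CSF1-Fc 1 or CSF1-Fc 2.

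*Cyp2d9*, a steroid 16-alpha-hydroxylase with higher expression in male liver, read 11.24 and 11.40 in the control livers and 10.68, 10.79 and 10.66 in the treated livers. The treated values lay close together below both controls (fold change -0.61, SE 0.13, adjusted p = 0.0385), and this call was kept under 8 of 18 alternatives. *Cyp2d11* was dim throughout, at 4.74 and 4.63 against 4.16, 4.00 and 4.00 (fold change -0.63, adjusted p = 0.0339), and both calls were lost when any 1 of the 5 arrays was left out. Of the 4 genes not called, *Cyp2d40* read 9.61 and 9.31 against 8.71, 8.89 and 8.34 and lay just outside the threshold (fold change -0.81, adjusted p = 0.0611). *Cyp2d26* read 12.67 and 12.76 against 12.36, 12.20 and 12.48, a difference of -0.37 (95% interval -0.71 to -0.03, adjusted p = 0.182). *Cyp2d12* and *Cyp2d34* were dim, with fold changes of -0.40 and -0.33.

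**Figure D4:**
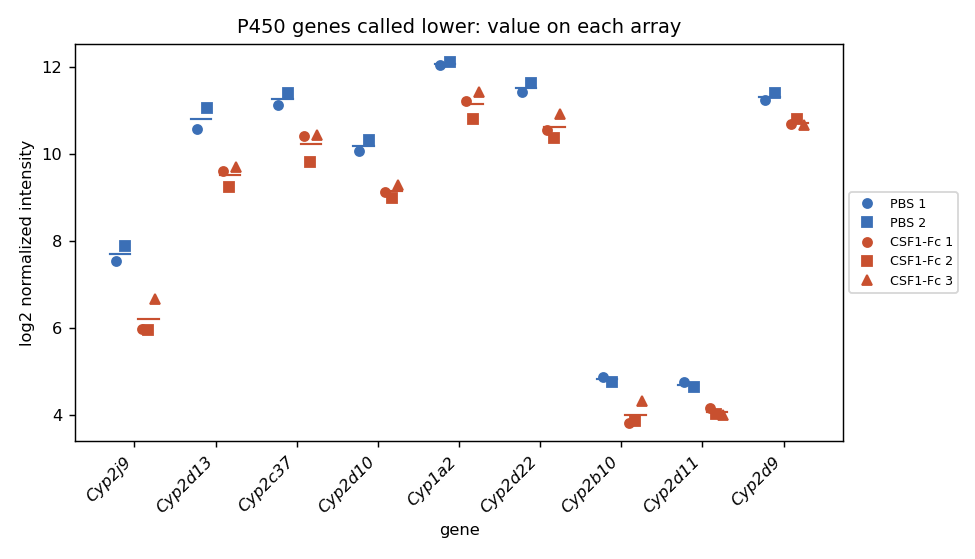
Log2 normalized intensity on each array for the 9 P450 genes called lower, in order of their fold change. Blue marks PBS, red CSF1-Fc, symbols the replicate and short lines the group mean. In each gene the 3 CSF1-Fc points lie below both PBS points, and *Cyp2b10* and *Cyp2d11* lie near the bottom of the scale.

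In family 1, *Cyp1a2*, the liver enzyme that oxidizes caffeine and arylamines, read 12.04 and 12.11 in the control livers and 11.22, 10.81 and 11.42 in the treated livers. The controls nearly coincided, and the treated livers lay below them and spread more widely, with CSF1-Fc 2 lowest. The fold change was -0.92 (SE 0.20, adjusted p = 0.0399), a level 1.89-fold lower, and the call was lost without PBS 1, PBS 2 or CSF1-Fc 1. *Cyp1a1* and *Cyp1b1*, which AhR ligands induce strongly in many tissues, were near 4 on all arrays and had fold changes of -0.11 and -0.05, neither called. Of the 3 AhR-inducible genes, *Cyp1a2* was the 1 that passed the test, where 3.95% of all named genes were lower. The window of *Cyp1a2* is shown, with capitals again marking TATAAA, because this gene gave the call of the family.
*Cyp1a2* (chr9:57683606-57683905, minus strand): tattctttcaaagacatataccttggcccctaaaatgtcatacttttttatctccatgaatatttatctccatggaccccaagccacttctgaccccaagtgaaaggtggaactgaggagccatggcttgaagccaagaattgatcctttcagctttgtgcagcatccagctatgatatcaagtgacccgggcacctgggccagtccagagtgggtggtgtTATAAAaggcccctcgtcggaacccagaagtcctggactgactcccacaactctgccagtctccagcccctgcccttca
TATAAA began 29 bases before the start in *Cyp1a2*. GCGTG, the core bound by AhR with its partner Arnt, was looked for on both strands and was found in 9 of 45 P450 windows, among them *Cyp1a1*, *Cyp1b1*, *Cyp2b10* and *Cyp2j9*, and in 32.2% of all windows. It was not in the *Cyp1a2* window.

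Subfamilies 2a and 2b lie together on chromosome 7. *Cyp2a5*, the coumarin hydroxylase, read 10.07 and 10.61 in the control livers and 10.36, 9.28 and 10.23 in the treated livers, so the groups overlapped (fold change -0.38, 95% interval -1.24 to 0.47, adjusted p = 0.587). *Cyp2a12*, a steroid hydroxylase, read 11.67 and 11.75 against 11.45, 11.26 and 11.71 and also overlapped (fold change -0.24, adjusted p = 0.470). Together with the dim *Cyp2a22* (-0.67), 0 of 3 genes of subfamily 2a were called. At an unadjusted p under 0.05, 1 was lower, against 14.5% of all named genes. *Cyp2b10*, the standard target of CAR, was dim in the control livers, at 4.86 and 4.75, and read 3.80, 3.85 and 4.31 in the treated livers. All 3 were below the controls, with a fold change of -0.82 (SE 0.19, adjusted p = 0.0488), and the call was kept under 8 of the 17 alternatives in which it was tested, but not without PBS 1, PBS 2, CSF1-Fc 1 or CSF1-Fc 2. The other 4 genes of subfamily 2b were all under 5, with fold changes of -0.25 to 0.11.

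Subfamily 2c was the largest, with 13 genes on chromosome 19, of which 1 was called lower, 11 had a fold change below 0 and 8 were lower at an unadjusted p under 0.05. Of its 8 genes at a PBS log2 intensity of at least 8, 1 was called and 5 passed unadjusted, where the background was 11.4% and 31.9%. The called gene, *Cyp2c37*, a CAR target that metabolizes arachidonic acid, read 11.13 and 11.41 in the control livers and 10.42, 9.80 and 10.43 in the treated livers. CSF1-Fc 2 lay well below the other treated livers, and the fold change was -1.05 (SE 0.23, adjusted p = 0.0416), lost without PBS 1, PBS 2 or CSF1-Fc 1. *Cyp2c29*, another CAR target, read 12.10 and 12.07 against 11.77, 11.36 and 11.79 (fold change -0.44, 95% interval -0.86 to -0.03, adjusted p = 0.184). *Cyp2c54* (-0.81), *Cyp2c50* (-0.61) and *Cyp2c68* (-0.55, adjusted p = 0.0534) were not called. Of the 6 CAR-inducible genes the dim *Cyp2b10* and *Cyp2c37* were lower, against 3.95% of all named genes and 11.4% of those at a PBS log2 intensity of at least 8. The group's median fold change was -0.71, with 5 of the 6 below 0 and *Cyp2c55* at 0.18.

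The smaller differences in subfamily 2c included *Cyp2c70*, which makes the muricholic acids of mouse bile. It read 12.31 and 12.27 in the control livers and 12.11, 11.99 and 12.17 in the treated livers, a difference of -0.20 (95% interval -0.51 to 0.11, adjusted p = 0.424). *Cyp2c67* read 11.21 and 11.30 against 11.14, 10.91 and 11.08 (fold change -0.21, adjusted p = 0.411). *Cyp2c23*, an arachidonic acid epoxygenase, read 11.91 and 12.19 against 11.93, 11.78 and 12.16, and its groups overlapped (fold change -0.09, 95% interval -0.50 to 0.32, adjusted p = 0.808), with a value of 0.02 when arrays were centred on secreted proteins. The 5 remaining genes, *Cyp2c38*, *Cyp2c39*, *Cyp2c55*, *Cyp2c65* and *Cyp2c66*, had PBS log2 intensities under 8 and fold changes of -0.67 to 0.18.

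The largest fall was in subfamily 2j, whose enzymes make epoxides of arachidonic and other fatty acids. *Cyp2j9* read 7.53 and 7.87 in the control livers and 5.97, 5.93 and 6.67 in the treated livers. The groups were separated by nearly 1 unit, with a fold change of -1.51 (SE 0.26, adjusted p = 0.0170), a level 2.85-fold lower, and the call was kept under 14 of 18 alternatives but not without PBS 1, PBS 2 or CSF1-Fc 1. *Cyp2j5* read 11.55 and 11.64 against 10.996, 10.66 and 11.07, without overlap, and lay just outside the threshold (fold change -0.69, SE 0.17, adjusted p = 0.0552). *Cyp2j6* had a fold change of -0.77 (adjusted p = 0.127), and the 3 dim genes *Cyp2j11*, *Cyp2j12* and *Cyp2j13* had values of -0.08, 0.02 and -0.38. The *Cyp2j9* window is shown as that of the gene with the lowest fold change, with capitals marking GCGTG.
*Cyp2j9* (chr4:96591436-96591735, minus strand): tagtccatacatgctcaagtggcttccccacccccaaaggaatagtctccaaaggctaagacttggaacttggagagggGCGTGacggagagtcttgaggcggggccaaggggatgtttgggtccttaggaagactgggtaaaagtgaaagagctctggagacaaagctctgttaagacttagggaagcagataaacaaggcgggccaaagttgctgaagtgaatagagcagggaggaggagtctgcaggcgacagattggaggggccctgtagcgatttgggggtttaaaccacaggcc
It held no TATAAA, and was 45.9% identical to the *Cyp2j5* window.

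Subfamily 3a, the major group for drug oxidation, gave 0 calls among its 6 genes on rows of 1 gene symbol. Rows of several symbols were not counted. Of these, 1 P450 row not assigned to a subfamily here was called lower (fold change -1.24, limma, adjusted p = 0.0110). At an unadjusted p under 0.05, 4 of the 6 genes were lower, against 14.5% of all named genes. *Cyp3a25* came nearest to a call, at 11.88 and 12.14 in the control livers and 11.02, 11.06 and 11.50 in the treated livers. The groups did not overlap, and the fold change was -0.81 (SE 0.19, adjusted p = 0.0522). *Cyp3a11*, the PXR target usually set beside human CYP3A4, read 12.06 and 12.04 against 11.70, 11.30 and 11.74, again without overlap (fold change -0.47, 95% interval -0.89 to -0.06, adjusted p = 0.164). *Cyp3a13* had a fold change of -0.60 (adjusted p = 0.118), so that 0 of the 3 PXR-inducible genes passed, with a median of -0.60. *Cyp3a16*, *Cyp3a44* and *Cyp3a57* had PBS log2 intensities under 8 and fold changes of -0.42 to -0.01. The *Cyp3a11* window is shown for contrast with those above, with capitals marking the TATAAA run, the hexamer AGGTCA that many nuclear receptors read, and a form of the HNF4 site, CAAAGTCCA.
*Cyp3a11* (chr5:145879805-145880104, minus strand): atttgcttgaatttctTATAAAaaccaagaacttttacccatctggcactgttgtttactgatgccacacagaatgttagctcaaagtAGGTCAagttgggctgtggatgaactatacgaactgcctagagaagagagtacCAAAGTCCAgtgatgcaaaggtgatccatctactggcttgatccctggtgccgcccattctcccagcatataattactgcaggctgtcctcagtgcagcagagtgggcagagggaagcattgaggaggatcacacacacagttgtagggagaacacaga
CAAAGTCCA on either strand was found in 6 of 45 P450 windows (13.3%), those of *Cyp2c65*, *Cyp2c67*, *Cyp2c68*, *Cyp2c70*, *Cyp3a11* and *Cyp3a16*, and in 0.496% of all windows. AGGTCA was found in 16 of 45 (35.6%) against 16.2%. Of the 7 called genes with a window, 0 held either of them. TTCNNNGAA, the STAT core, was found in 2 of 45 (4.44%) against 8.37%, and a full palindromic HNF1 site in 0 of 45 and in 3 of all 27025. Such matches are descriptions of these windows, and binding was not measured.

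The remaining subfamilies held 1 gene each, and 0 of these 9 genes (with *Cyp1b1*) were called. At an unadjusted p under 0.05, 4 of the 9 were lower, against 14.5% of all named genes. *Cyp2e1*, which oxidizes ethanol and acetaminophen, read 12.98 and 12.96 in the control livers and 12.49, 12.46 and 12.72 in the treated livers. The groups did not overlap, with a fold change of -0.41 (95% interval -0.75 to -0.08, adjusted p = 0.137). *Cyp2f2*, an enzyme of periportal hepatocytes and airway club cells, read 12.81 and 12.92 against 12.62, 12.41 and 12.69 (fold change -0.29, adjusted p = 0.285). *Cyp2u1*, a fatty acid hydroxylase, read 8.86 and 9.37 against 8.11, 8.48 and 8.23 and lay just outside the threshold (fold change -0.84, SE 0.20, adjusted p = 0.0540).

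*Cyp2r1*, the microsomal vitamin D 25-hydroxylase, had the smallest difference among the genes with a PBS log2 intensity of at least 8. It read 8.84 and 8.76 in the control livers and 8.70, 8.76 and 8.77 in the treated livers, so the groups overlapped (fold change -0.06, 95% interval -0.35 to 0.24, adjusted p = 0.842), and was 0.06 when arrays were centred on secreted proteins. The dim genes *Cyp2g1*, *Cyp2s1*, *Cyp2t4* and *Cyp2w1* had fold changes of -0.48, -0.42, -0.10 and -0.26. Of the 8 P450 genes listed as female-biased, 4 were measured (*Cyp2b9*, *Cyp2b13*, *Cyp3a16* and *Cyp3a44*). All 4 had a mean PBS log2 intensity under 6, 0 were called and 0 were lower at an unadjusted p under 0.05.

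Among the 35 other *Cyp* genes on the arrays, which belong to families 4 and above or have symbols outside the naming pattern, 10 were lower and 3 were higher, with a median fold change of -0.36. Among all named genes 3.95% were lower and 8.34% were higher, with a median of -0.08. At a PBS log2 intensity of at least 8, 8 of 15 were lower and 1 was higher, with a median of -0.81. For all named genes at that level, 11.4% were lower and 199 of 4385 were higher, with a median of -0.18. The difference between the 35 other genes and families 1 to 3 was not tested. *Cyp2d37-ps*, which has a subfamily 2d symbol outside the pattern, was counted among the 35 and not in subfamily 2d. It was called lower (fold change -1.15, adjusted p = 0.0253). The count of 10 lower genes was 2 without PBS 2 and 5 without PBS 1 or without CSF1-Fc 1, and the count of 3 higher was 1 without PBS 2.

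Of 21 listed genes for electron transfer, heme and epoxide hydrolysis, 17 were measured, and 2 were higher and 2 lower. The share of 11.8% lower is near the 11.4% of named genes at a PBS log2 intensity of at least 8. The background higher was 8.34% of all named genes, and 199 of 4385 at that level. Heme oxygenase *Hmox1* read 8.14 and 7.79 in the control livers and 9.62, 9.70 and 9.62 in the treated livers (fold change 1.68, SE 0.15, adjusted p = 0.0012). Biliverdin reductase *Blvra*, the next enzyme of heme breakdown, read 6.76 and 6.57 against 8.06, 8.05 and 7.94 (fold change 1.35, adjusted p = 0.0017). In both genes the groups were tight and far apart. Heme oxygenase is abundant in macrophages, 17 of 17 of whose markers rose in the same livers, and their part in these changes was not tested. Soluble epoxide hydrolase *Ephx2*, which opens the epoxides made by P450 enzymes, fell from 11.22 and 11.36 to 10.10, 9.94 and 10.25 (fold change -1.19, adjusted p = 0.0047). *Cpox*, a late enzyme of heme synthesis, fell from 9.43 and 9.38 to 8.39, 8.30 and 8.60 (fold change -0.97, adjusted p = 0.0096). *Ephx2* did not pass without PBS 2, and *Cpox* did not pass without PBS 1, PBS 2 or CSF1-Fc 1. *Cyb5a*, the electron donor cytochrome b5, had a fold change of -0.08 (adjusted p = 0.783). *Cyb5b* (-0.46, adjusted p = 0.143) and *Cyb5r3* (-0.49, adjusted p = 0.126) were not called, though every CSF1-Fc array lay below both PBS arrays. At an unadjusted p under 0.05, 7 of the 17 genes were lower and 3 were higher. The background lower at that p was 31.9% of named genes at a PBS log2 intensity of at least 8, and the background higher was 440 of 4385. *Alas1*, the rate-limiting enzyme of heme synthesis, read 10.88 and 8.94 in the control livers and 10.13, 10.17 and 9.98 in the treated livers. Its controls lay on either side of the treated livers, so its fold change of 0.18 (95% interval -1.06 to 1.43, adjusted p = 0.883) has little precision, and it was -0.79 without PBS 2 and 1.15, past the threshold, without PBS 1.

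Of 32 listed regulators of P450 genes, 28 were measured, with 5 lower (17.9%, against 11.4% of named genes at a PBS log2 intensity of at least 8) and 0 higher. At an unadjusted p under 0.05, 12 of the 28 were lower, against 31.9% of named genes at that level, and 0 were higher. The PXR gene *Nr1i2* read 9.16 and 9.47 in the control livers and 8.44, 8.33 and 8.61 in the treated livers (fold change -0.85, SE 0.16, adjusted p = 0.0236). The bile acid receptor gene *Nr1h4* read 9.73 and 9.94 against 9.14, 8.86 and 9.26 (fold change -0.75, adjusted p = 0.0430), and neither receptor's groups overlapped. The growth hormone receptor gene *Ghr* had a fold change of -0.67 (adjusted p = 0.0232), and the clock-output factor *Hlf* of -0.88 (adjusted p = 0.0149). *Bcl6*, a repressor with sex-biased action in liver, read 8.18 and 9.40 against 6.92, 6.03 and 6.18, the largest fall of the list (fold change -2.42, SE 0.41, adjusted p = 0.0174) with control livers that differed by more than 1 unit. *Ahr* itself read 8.18 and 9.07 against 8.34, 8.12 and 8.46, with overlap (fold change -0.32, adjusted p = 0.560), and was 0.13 without PBS 2. The CAR gene *Nr1i3* and the reductase gene *Por* had no row with 1 gene symbol and were not analysed here. The count of 5 lower regulators was 1 without PBS 1, 2 without PBS 2 or without CSF1-Fc 1, and 3 without CSF1-Fc 2, and 1 regulator was higher without PBS 1.

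**Figure D5:**
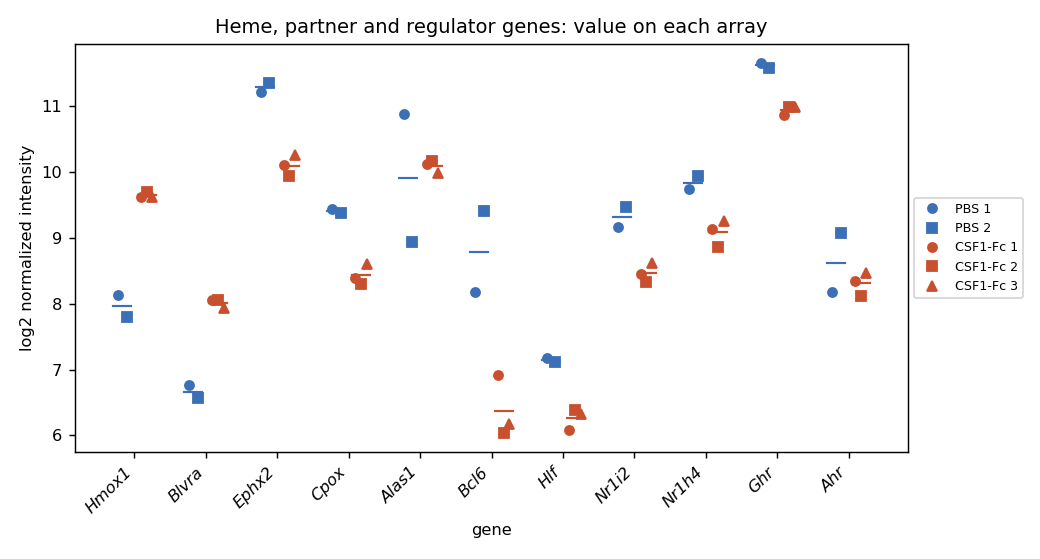
Log2 normalized intensity on each array for heme and epoxide genes and for regulators of P450 genes, with blue for PBS, red for CSF1-Fc, symbols for the replicate and short lines for group means. *Hmox1* and *Blvra* are higher in all 3 CSF1-Fc livers, and *Alas1* has PBS values of 10.88 and 8.94 on either side of the treated livers.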

How the data were processed

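RNA from 5 livers (2 PBS, 3 CSF1-Fc) was hybridized to 1 array per liver after amplification with the Nugen Pico SL kit. The authors deposited normalized intensity values on a linear scale for 35556 rows, by a method not given in the sources used here. Per the processing notes of the submitters, Affymetrix Expression Console 1.1 was used, and the study's methods name Partek. RNA was extracted with Trizol per the labels and with RNA Bee per the methods.

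From the deposited intensities, log2 values entered a limma fit (version 3.58.1, R 4.3.3, 1 mean per group, eBayes), p-values were adjusted by Benjamini-Hochberg across every row, and calls were made under 0.05. Residual and prior degrees of freedom were 3 and 3.34. The study's methods name no test for the arrays. Gene symbols came from the platform annotation: 21218 rows had 1 symbol, 1881 several and 12457 none here. A gene was represented by its row with the highest mean. Of 59 P450 family 1 to 3 symbols in RefSeq, 6 had no row with 1 symbol. The labels give replicate livers without tying them to numbered mice, and should samples share a source, p-values measure only the spread between them.

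The genes, lists and tests were chosen with earlier results of these data known. Values are given for every called gene, for the gene with the highest PBS mean in each subfamily, for genes with a PBS mean of at least 11, for the 5 uncalled genes with the lowest p, and for called partners and regulators with *Por*, *Alas1*, *Ahr*, *Nr1i2* and *Nr1i3*. Other genes, including *Cyb5a*, *Cyb5b*, *Cyb5r3* and *Cyp2d37-ps*, are given by range or were named after their values were seen. A T cell marker list was counted too (1 of 5 higher, 0 lower, 1 lower at an unadjusted p under 0.05). The 18 alternatives covered normalization, centring, an offset of 16, filters, variance models with statmod 1.5.0, the replicate block, each array left out and thresholds. Arrays have no depth, and the number of livers limits the precision.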

Additional observations from a re-analysis of the deposited data

How the results depend on the processing

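Under all 18 alternatives 0 P450 genes of families 1 to 3 were higher, and the 9 called genes kept a fold change below 0 wherever tested. The count of 9 lower genes was 14 with rows of a mean log2 intensity of at least 5, 22 with rows of 1 gene symbol, 23 with array weights, 19 at an adjusted p under 0.1, 4 with at least a 2-fold change and 0 without variance moderation. Leaving out 1 array gave 0 to 12. The median fold change of families 1 to 3 was -0.30 centred on hepatocyte secreted proteins, -0.29 with log2(intensity + 16) and -0.60 with rows of at least 5, where only 31 of the 53 genes were tested. For the other *Cyp* genes no moderation gave 0 higher and 1 lower, and leaving out an array gave 1 to 2 higher and 2 to 11 lower. For the partner and heme genes no moderation gave 1 higher and 0 lower, array weights gave 5 lower, the 2-fold limit gave 1 lower and leaving out an array gave 0 to 2 lower. For the regulators the lower count was 3 centred on secreted proteins, 8 with rows of 1 symbol, 9 with array weights, 0 without moderation and 1 with the 2-fold limit, and leaving out an array gave 1 to 6 lower and 0 to 1 higher. The cause of these shifts was not tested, apart from the fewer rows or arrays that some settings use.

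The labels number the replicates without saying that the numbers pair livers. Deviations from the group means correlated at -0.07 and -0.25 in the 2 same-numbered pairs. With 2 PBS arrays the PBS deviations mirror each other, so these values cannot show whether the livers were paired. With the replicate block, in which CSF1-Fc 3 has no partner and adds nothing to the difference, 8 P450 genes were lower (6 of the 9), with 8 other *Cyp* genes, 2 partner genes and 1 regulator.

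Fold changes that turned sign belonged to genes not called. *Cyp1b1* was 0.033 after quantile normalization, and centred on secreted proteins *Cyp1b1* was 0.061, *Cyp2r1* 0.059, *Cyp2t4* 0.018 and *Cyp2c23* 0.023. Over the fits leaving out 1 array, *Cyp1b1* ranged from -0.18 to 0.069, *Cyp2w1* from -0.59 to 0.076 (both highest without PBS 1), *Cyp2c23* from -0.23 to 0.047 and *Ahr* from -0.76 to 0.13 (both highest without PBS 2), and *Alas1* from -0.79 to 1.15, where it passed the test without PBS 1. Of 713 values of named genes under the alternatives, 573 kept direction and side of the threshold, 94 lost the call, 36 gained it and 10 turned sign. With 2 control arrays and signals under 5 near background, small changes could not be resolved.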

Other observations

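Rows annotated to several gene symbols were left out of the counts above. There were 5 such rows holding a P450 family 1 to 3 symbol, with fold changes of -1.24 to -0.12, and 1 of them was called lower (limma, adjusted p = 0.0110). *Cyp1b1* had a further row, with a fold change of -0.02. Across the 53 P450 genes the PBS log2 intensity correlated with the fold change at r = -0.43, and at r = 0.25 over the 26 genes at a PBS log2 intensity of at least 8, where genes share arrays and are not replicates. The control livers lay apart in several regulators: *Onecut1*, a liver transcription factor named here after its values were seen, read 11.14 in PBS 1 and 7.55 in PBS 2 and 9.55, 9.60 and 9.64 in CSF1-Fc livers.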
